A study of Mus musculus with 18 samples.

Results

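The 10 genes that make or inactivate eicosanoids (Alox5, Alox5ap, Alox15, Ltc4s, Lta4h, Ptgs1, Ptgs2, Ptges, Hpgds and Hpgd) were followed across the microglia and macrophages of the injured spinal cord. They were taken by name from the 53465 genes in the count tables. Adult female C57BL/6J mice received a spinal cord contusion (SCI) and, 48 h later, a single injection into the cord of PBS (mice 1 to 3), rIL-13 (mice 5 to 7) or rIL-4 (mice 8 to 10). The cells were sorted 24 h after the injection. Microglia (CD45low, CD11b+, F4/80+) and macrophages (CD45high, CD11b+, F4/80+) came from the same cord, so that the 18 libraries of 6 groups were made from 9 mice, with 3 mice per group. All 9 mice carried the injury and the injection, so that the PBS groups are injured and injected controls. Levels are CPM, the counts of a gene relative to the total of its library, with the totals TMM-scaled over the 18 libraries, and means are given ± SD with n = 3 mice.

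Eicosanoids are short-lived lipid signals made from arachidonic acid. In the lipoxygenase branch, 5-lipoxygenase (Alox5) works with its activating protein (Alox5ap) to make leukotriene A4, which Lta4h turns into the neutrophil attractant leukotriene B4 and Ltc4s into the cysteinyl leukotriene C4. Alox15 is the 12/15-lipoxygenase, whose products feed the lipoxins and related mediators, and in human monocytes it is a classic target of IL-4 and IL-13. In the cyclooxygenase branch, the constitutive Ptgs1 (COX-1) and the inducible Ptgs2 (COX-2) make prostaglandin H2, which Ptges turns into prostaglandin E2 and Hpgds into prostaglandin D2. Hpgd starts the breakdown of prostaglandins by oxidising them.

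In the GENCODE annotation of GRCm38, Alox5 (ENSMUSG00000025701.12) lies on the minus strand of chromosome 6 from 116410077 to 116461178, and Hpgds (ENSMUSG00000029919.5) on the same chromosome and strand from 65117293 to 65144908. Hpgd (ENSMUSG00000031613.9) lies on the plus strand of chromosome 8 from 56294585 to 56321043. Alox15 (ENSMUSG00000018924.6) lies on the minus strand of chromosome 11 from 70344152 to 70352031. Ptgs1 (ENSMUSG00000047250.13) spans 36230426 to 36252272 on chromosome 2, and Ptgs2 (ENSMUSG00000032487.8) spans 150100031 to 150108227 on chromosome 1. All 10 genes are annotated as protein coding. Alox5ap, Ltc4s and Ptgs1 each share exon bases with a gene on the opposite strand. The libraries hold no strand information, so that the reads of such a pair cannot be told apart, but these partners had at most 38, 63 and 18 counts in any library.

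Promoters of Alox5, Hpgds and Hpgd are shown because these genes were lower after a cytokine in both or in either of the cell types. Each run covers 250 bases before to 50 bases after the start site in RefSeq (GRCm38.p6), at chr6:116461129-116461428 on the minus strand for Alox5, chr6:65144681-65144980 on the minus strand for Hpgds and chr8:56294302-56294601 on the plus strand for Hpgd. Capitals mark GAGGAA, the core bound by PU.1, a myeloid ETS factor, or TTCCTC, the same core read on the opposite strand.
Alox5: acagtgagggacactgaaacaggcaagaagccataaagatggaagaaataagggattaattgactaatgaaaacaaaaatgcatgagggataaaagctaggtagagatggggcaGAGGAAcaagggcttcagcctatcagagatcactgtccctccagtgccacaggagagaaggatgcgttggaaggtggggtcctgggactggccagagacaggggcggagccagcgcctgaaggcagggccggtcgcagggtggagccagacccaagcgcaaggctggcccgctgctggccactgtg
Hpgds: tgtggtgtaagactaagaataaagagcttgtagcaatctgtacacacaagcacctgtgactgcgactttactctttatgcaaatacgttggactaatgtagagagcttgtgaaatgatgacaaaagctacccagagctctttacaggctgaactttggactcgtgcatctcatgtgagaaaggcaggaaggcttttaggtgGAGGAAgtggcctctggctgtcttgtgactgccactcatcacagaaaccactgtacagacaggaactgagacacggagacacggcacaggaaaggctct
Hpgd: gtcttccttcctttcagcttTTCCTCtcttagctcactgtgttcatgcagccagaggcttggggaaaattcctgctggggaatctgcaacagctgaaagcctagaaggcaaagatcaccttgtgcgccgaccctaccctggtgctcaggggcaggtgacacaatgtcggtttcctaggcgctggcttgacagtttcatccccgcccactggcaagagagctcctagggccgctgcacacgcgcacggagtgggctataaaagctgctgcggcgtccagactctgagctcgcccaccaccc
The core began 136 bases before the start site in Alox5, 49 bases before it in Hpgds and 230 bases before it in Hpgd. RefSeq entries were matched for 8 of the 10 genes (not for Alox5ap and Alox15), and all 8 windows held the core on either strand, against 28.3% of 32851 mouse promoters of this length. The spaced palindrome of STAT6 was found only in Ptges (6.95% of all promoters), and the C/EBP letters TTGCNNAA only in Ptgs2 and Hpgds (10.8%). TTCNNNGAA for other STAT factors (8.3%), TGANTCA for AP-1 (7.81%), TGACGTCA for CREB (1.79%) and a motif of NF-kB (1.63%) were in 0 of the 8 windows. The letters were searched on both strands and were chosen with the results of these genes known, and a match describes the sequence and not a bound site.

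Depth was similar, with 35961305 to 45849829 counts per library. Over 7 microglial markers (P2ry12, Tmem119, Cx3cr1, Sall1, Siglech, Gpr34 and P2ry13), the microglia libraries held 609 to 3932 CPM and the macrophage libraries 65.4 to 1013 CPM, so that microglial transcripts were also present in the macrophage sort. Over 8 fibroblast and pericyte markers, microglia libraries held 206 to 7279 CPM and macrophage libraries 0.307 to 9.17 CPM. Over 10 neutrophil markers, they held 91.3 to 317 CPM and 298 to 3435 CPM. Over 8 markers of monocyte-derived macrophages, they held 723 to 1806 CPM and 2010 to 8120 CPM. Mouse 6 (rIL-13) stood apart, with the highest fibroblast sum in its microglia (7279 CPM) and the highest neutrophil sum in its macrophages (3435 CPM). Of 5 genes that check the response to the cytokines (Retnla, Chil3, Mrc1, Socs1 and Cish), edgeR called 5 higher after either cytokine in macrophages, and in microglia 4 after rIL-4 and 3 after rIL-13.

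**Figure D1:**
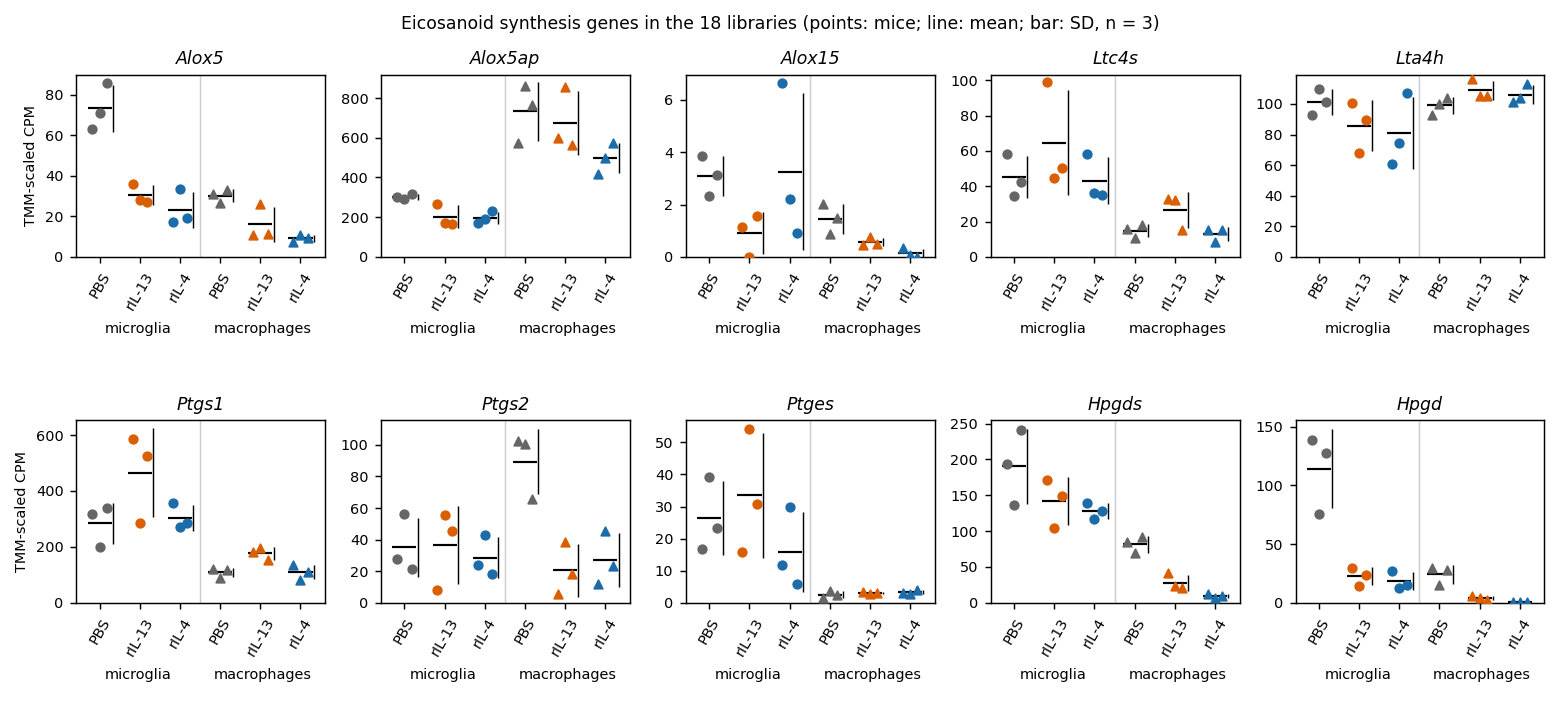
TMM-scaled CPM of each gene in the 18 libraries on a linear axis that starts at 0, with circles for microglia and triangles for macrophages, a line for the mean and a bar for the SD of 3 mice, cut at 0 where it would go below. Hpgd, Hpgds and Alox5 were highest in PBS microglia, Alox5ap was highest in macrophages, and Ptgs2 was highest in PBS macrophages.

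All 10 genes passed edgeR's filter on low counts in every comparison. Compared per kilobase of exon, Alox5ap had the highest mean of them in each of the 6 groups. In 5 groups it lay above Ptgs1 in all libraries, and in rIL-13 microglia the 2 genes overlapped (116 to 189 CPM per kilobase for Alox5ap and 73.4 to 151 for Ptgs1), with Ptgs1 higher in mouse 7. In PBS microglia its mean level was 213 ± 10.2 CPM per kilobase (SD, n = 3), followed by Ptgs1 (73.3 ± 19.1), Hpgd (67.8 ± 20.1), Ltc4s (44.5 ± 11.9) and Hpgds (29.6 ± 8.12). Neighbours from Ptgs1 to Hpgds in this order overlapped between mice, whereas Alox5ap lay above Ptgs1 in every mouse. Alox5 (17.9 ± 2.84) and Lta4h (16.6 ± 1.40) came next and overlapped, Ptgs2 (7.67 ± 4.05) and Ptges (6.74 ± 2.94) overlapped below them, and Alox15 was lowest (1.26 ± 0.308). In PBS macrophages, Alox5ap had 517 ± 104 CPM per kilobase and Ptgs1, the next gene, 28.0 ± 4.36. Ptgs2 (19.5 ± 4.53), Lta4h (16.2 ± 0.913), Ltc4s (14.6 ± 3.49), Hpgd (14.4 ± 4.85) and Hpgds (12.7 ± 1.80) followed with overlapping neighbours, and Alox5 stood below them at 7.36 ± 0.753. Ptges (0.655 ± 0.269) and Alox15 (0.597 ± 0.234) overlapped at the bottom. The transcripts of the 5-lipoxygenase partners differed in level, with a median ratio of Alox5ap to Alox5 per length of 11.8 in PBS microglia and 67.5 in PBS macrophages.

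The first question was which of these genes each cytokine changed against PBS. In macrophages, rIL-4 lowered 4 of the 10 genes (Hpgd, Hpgds, Alox5 and Alox15) by edgeR's quasi-likelihood test and raised 0, where 14% of all 13606 genes tested were differentially expressed (DE), 6.77% higher and 7.2% lower. After rIL-13, 2 genes were lower in macrophages (Hpgd and Hpgds) and 0 higher, where 4.19% of all genes were DE, 2.53% higher and 1.66% lower. In microglia, rIL-4 lowered 2 genes (Alox5 and Hpgd), where 2.22% of 15566 genes were DE, 1.33% higher and 0.887% lower. There, rIL-13 lowered Hpgd alone, where 0.366% of genes were DE, 0.283% higher and 0.0835% lower. Without PBS mouse 1 or 3, both microglia counts were 0. Over all genes, calls then went from 345 to 81 and 75 with rIL-4 and from 57 to 24 and 22 with rIL-13. DESeq2 called 2 of the 10 genes with rIL-13 in microglia and 322 of all genes. The libraries of the cytokine and of PBS did not overlap for 5 of the 10 genes with rIL-4 in macrophages (34.7% of all genes), 7 with rIL-13 in macrophages (24.5%), 3 with rIL-4 in microglia (25.9%) and 4 with rIL-13 in microglia (16%). The median log2 fold change of the 10 genes was -1.14 with rIL-4 in macrophages, -0.52 with rIL-13 in macrophages, -0.43 with rIL-4 in microglia and -0.33 with rIL-13 in microglia, whereas the median over all genes was -0.06 with rIL-4 in microglia and nearer to 0 in the other 3 comparisons. The rIL-4 and rIL-13 comparisons of a cell type share its PBS libraries.

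**Figure D2:**
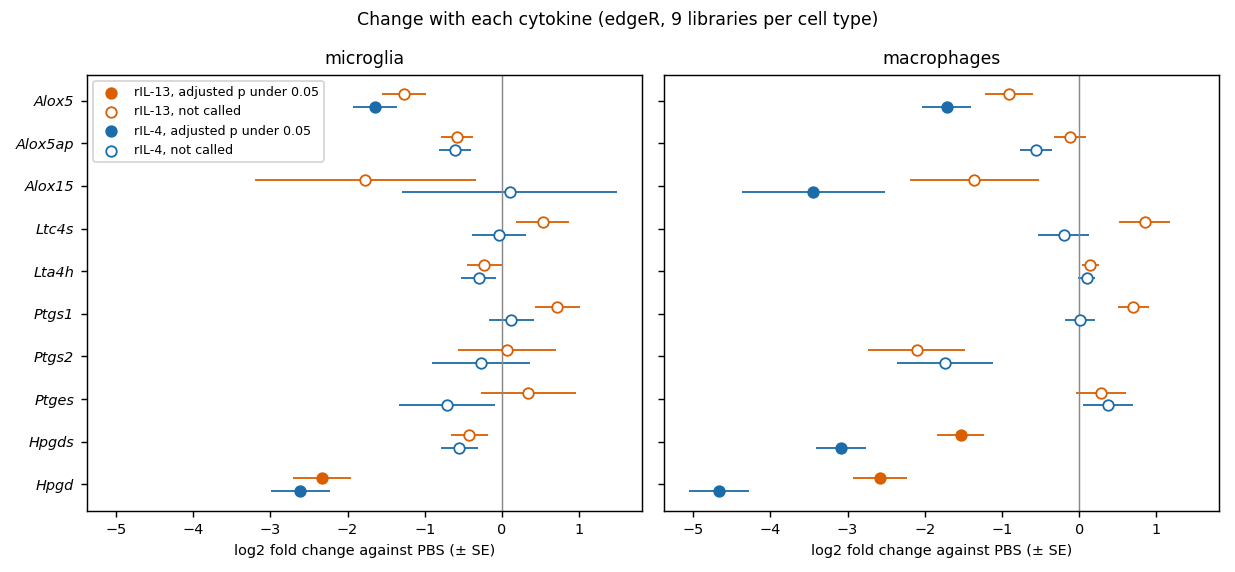
Log2 fold change against PBS (± SE) of each gene with rIL-13 (orange) and rIL-4 (blue) in microglia and macrophages, with filled points for an adjusted p under 0.05 in edgeR. Hpgd is filled in all 4 comparisons, Hpgds in macrophages with either cytokine, Alox5 with rIL-4 in both cell types and Alox15 with rIL-4 in macrophages.

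Hpgd, the enzyme that starts prostaglandin inactivation, was the only one of these genes to be called in all 4 comparisons with PBS. In PBS microglia it had 139, 75.7 and 128 CPM, against 29.4, 14.6 and 23.9 CPM after rIL-13 and 27.0, 13 and 15.2 CPM after rIL-4. Every cytokine-treated microglia library lay below every PBS library, and the cytokine groups overlapped. By edgeR, Hpgd fell by 2.61 ± 0.38 on the log2 scale (SE) with rIL-4 (adjusted p = 0.0114) and by 2.33 ± 0.38 with rIL-13 (adjusted p = 0.0408). Without PBS mouse 1 or 3, the adjusted p with rIL-4 rose to at most 0.0597. The call with rIL-13 in microglia did not survive the removal of any PBS or rIL-13 mouse or of rIL-4 mouse 10, or a fit of only the 6 libraries compared, with an adjusted p of at most 0.196.

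In macrophages, Hpgd had 29.8, 14.9 and 28.1 CPM with PBS, 5.96, 3.66 and 2.5 CPM with rIL-13 and 0.904, 0.992 and 0.973 CPM with rIL-4. The 3 groups did not overlap, with PBS highest and rIL-4 lowest. Hpgd fell by 4.66 ± 0.39 on the log2 scale with rIL-4 (adjusted p = 8.55e-05, edgeR), from a mean of 24.2 ± 8.16 to 0.956 ± 0.0463 CPM, and by 2.58 ± 0.35 with rIL-13 (adjusted p = 0.00332). Both calls held in all 15 alternatives. In these sorted bulk samples, fewer cells with the transcript and less transcript per cell cannot be told apart. The 7 microglial markers moved with Hpgd in macrophages. All 7 fell with rIL-4 and 2 of 7 with rIL-13, and their summed level was 534 to 1013 CPM with PBS, 242 to 359 CPM with rIL-13 and 65.4 to 72.4 CPM with rIL-4. In microglia, 3 of the 7 fell with rIL-4 and 0 with rIL-13, with sums of 1961 to 3932 CPM with PBS, 680 to 2165 CPM with rIL-13 and 609 to 1139 CPM with rIL-4. The sums of other marker lists differed between the treatments in these macrophages too. The 5 border macrophage markers were Mrc1, Lyve1, Cd163, Cbr2 and Folr2. Mrc1 is also 1 of the genes that check the response to the cytokines, and it was called higher with each of them here. The sum of the 5 was 154 to 199.7 CPM with PBS, 1651 to 2390 CPM with rIL-13 and 1544 to 2968 CPM with rIL-4. Of these markers, 3 rose with each cytokine and 1 fell with rIL-4. Over 8 markers of monocyte-derived macrophages, of which 1 rose with each cytokine and the others did not pass, the sums were 2010 to 2567, 4677 to 8120 and 5668 to 7597 CPM in the same order. Over 5 endothelial markers, of which 2 rose with each cytokine and 1 fell with rIL-4, they were 22.4 to 28.8, 143 to 218 and 229 to 435 CPM. In microglia, the border macrophage sums were 122 to 181 CPM with PBS, 413 to 614 CPM with rIL-13 and 442 to 904 CPM with rIL-4, and 1 of the 5 rose with rIL-13 and 3 with rIL-4. The fibroblast and pericyte sums there were 2311 to 3188 CPM with PBS and 206 to 1489 CPM with rIL-4, where 1 of 8 fell. Endothelial sums there were 664 to 1493 with PBS, 1512 to 2515 with rIL-13 and 1812 to 2309 CPM with rIL-4, and 0 of 5 were called. Sums of the monocyte-derived macrophage markers there were 723 to 900, 841 to 1098 and 996 to 1806 CPM in the same order. Of these 8, 1 rose with each cytokine. The part of these cells in the change of Hpgd was not tested.

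Hpgds, the haematopoietic prostaglandin D2 synthase, differed between the cell types in its response to rIL-4. In macrophages it had 84.6, 68.9 and 91.4 CPM with PBS, 40.9, 23.1 and 20.1 CPM with rIL-13 and 12.9, 6.45 and 9.35 CPM with rIL-4, again with no overlap between the 3 groups. It fell by 3.09 ± 0.33 on the log2 scale with rIL-4 (adjusted p = 0.000292, edgeR) and by 1.54 ± 0.31 with rIL-13 (adjusted p = 0.022). The call with rIL-4 held in all 15 alternatives, and that with rIL-13 was lost without PBS mouse 1 or 3 or rIL-13 mouse 6 or 7, with an adjusted p of at most 0.0793. In microglia, Hpgds had 194, 137 and 241 CPM with PBS, 171, 105 and 149 CPM with rIL-13 and 139, 117 and 128 CPM with rIL-4. These groups overlapped, and the adjusted p was 0.294 with rIL-4 and 0.826 with rIL-13. The log2 response to rIL-4 was higher in microglia than in macrophages by 2.52 ± 0.41 (adjusted p = 0.00883, interaction in edgeR over 18 libraries), the only call among the 10 genes where 0.992% of 16535 genes were called. It was lost without mouse 1, 3 or 10, with an adjusted p of at most 0.0802. The marker values given beside Hpgd are from the same macrophage libraries, and the part of those cells in the change of Hpgds was not tested.

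**Figure D3:**
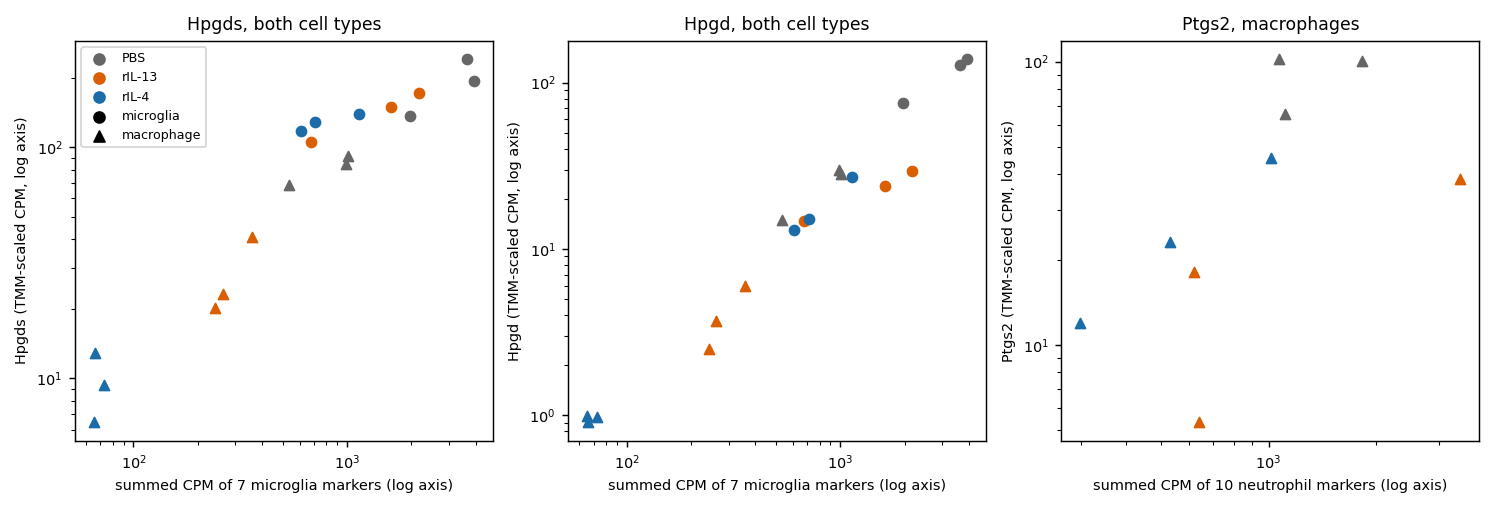
TMM-scaled CPM of Hpgds and Hpgd in all 18 libraries against the summed CPM of 7 microglial markers, and of Ptgs2 in the 9 macrophage libraries against the summed CPM of 10 neutrophil markers, on log axes, with 1 point per library. The rIL-4 macrophages sit lowest for Hpgds and for the microglial markers, and the macrophages of rIL-13 mouse 6 have the highest neutrophil sum, 3435 CPM.

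Hpgds and Hpgd, one a prostaglandin synthase and the other a prostaglandin dehydrogenase, did not keep their proportion. The ratio of Hpgds to Hpgd per length was 0.366 to 0.493 in PBS microglia, 1.53 to 1.88 in rIL-13 microglia and 1.35 to 2.37 in rIL-4 microglia. In macrophages this ratio was 0.744 to 1.21 with PBS, 1.65 to 2.10 with rIL-13 and 1.70 to 3.73 with rIL-4. In each cell type, every cytokine-treated mouse had a higher ratio than every PBS mouse, and the ratios after the cytokines overlapped. Hpgd changed with rIL-4 by a log2 amount that was 2.02 ± 0.54 higher in microglia than in macrophages (adjusted p = 0.0976, edgeR), and with the mouse as a replicate block this interaction had an adjusted p of 0.044.

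Alox5, the 5-lipoxygenase itself, was lower after rIL-4 in both cell types. In microglia it had 63.0, 71.0 and 86.0 CPM with PBS, 36, 28.0 and 27.2 CPM with rIL-13 and 17.0, 33.5 and 18.9 CPM with rIL-4. The PBS libraries lay above all others, and the cytokine groups overlapped. Alox5 fell by 1.64 ± 0.29 on the log2 scale with rIL-4 (adjusted p = 0.0218, edgeR), and this call was lost without PBS mouse 1, 2 or 3 or rIL-4 mouse 8 or 10, with an adjusted p of at most 0.0971. With rIL-13 its log2 fold change was -1.27 ± 0.28 and did not pass (adjusted p = 0.17). DESeq2 called it (adjusted p = 0.00354), and edgeR did without rIL-4 mouse 9 (adjusted p = 0.04996). In macrophages, Alox5 had 31.0, 26.8 and 32.9 CPM with PBS, 10.8, 25.9 and 11.3 CPM with rIL-13 and 7.42, 11 and 9.24 CPM with rIL-4. The rIL-13 macrophages of mouse 6 stood apart from the other 2 of their group. Alox5 fell by 1.72 ± 0.32 with rIL-4 (adjusted p = 0.00565), a call that held in all 15 alternatives. With rIL-13 the log2 fold change was -0.91 ± 0.31 (adjusted p = 0.145), and without mouse 6 it was called, at -1.44 (adjusted p = 0.00441). The microglial marker sums given above moved in the same direction as Alox5. In macrophages, the 10 neutrophil markers did so with rIL-4 (1071 to 1826 CPM with PBS and 298 to 1015 CPM with rIL-4, with 2 of 10 called lower), and the rIL-13 library of mouse 6 had the highest neutrophil sum (3435 CPM). The part of these cells was not tested.

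Alox5ap, which presents arachidonic acid to Alox5, was not called against PBS with either cytokine. In microglia it had 299, 290 and 319 CPM with PBS, 268, 172 and 165 CPM with rIL-13 and 170, 189 and 229 CPM with rIL-4, and neither cytokine group overlapped with PBS. The log2 fold change was -0.61 ± 0.20 with rIL-4 (adjusted p = 0.181, edgeR) and -0.58 ± 0.20 with rIL-13 (adjusted p = 0.526). In macrophages it had 572, 863 and 767 CPM with PBS, 599, 858 and 564 CPM with rIL-13 and 419, 500 and 572 CPM with rIL-4. Here the groups overlapped, and the log2 fold change with rIL-4 was -0.56 ± 0.20 (adjusted p = 0.0988). The median ratio of Alox5ap to Alox5 per length in macrophages was 67.5 with PBS, 145 with rIL-13 and 163 with rIL-4, with no overlap between PBS and either cytokine. In microglia, it was 11.8 with PBS, 17.8 with rIL-13 and 28.9 with rIL-4, also with no overlap with PBS.

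The enzymes that act on leukotriene A4 did not pass the test against PBS. Ltc4s had 58.3, 34.6 and 42.5 CPM in PBS microglia, 98.8, 44.6 and 50.5 CPM in rIL-13 microglia and 58.4, 35.9 and 35.1 CPM in rIL-4 microglia, with overlap between all groups. In macrophages it had 15.7, 11 and 17.8 CPM with PBS, 32.9, 32.3 and 15.0 CPM with rIL-13 and 15.0, 8.59 and 15.2 CPM with rIL-4. With rIL-13, 2 of 3 macrophage libraries lay above all PBS libraries, and the log2 fold change was 0.85 ± 0.33 (adjusted p = 0.202, edgeR). Lta4h ranged from 93.0 to 116 CPM over the 9 macrophage libraries and from 61.1 to 110 CPM over the 9 microglia libraries. It was not called in any of the comparisons (smallest adjusted p = 0.249 in edgeR).

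Alox15, the 12/15-lipoxygenase, was scarce in every group. In PBS macrophages it had 2.04, 0.885 and 1.47 CPM, which rest on 72, 29 and 53 counts. It had 0.472, 0.762 and 0.473 CPM with rIL-13 and 0.333, 0.0522 and 0 CPM with rIL-4, the last from 14, 2 and 0 counts. Both cytokine groups lay below PBS and did not overlap with each other. By edgeR it fell by 3.44 ± 0.93 on the log2 scale with rIL-4 (adjusted p = 0.0336), a fitted value that rests on very few counts. The call was lost in 7 of 14 alternatives, with an adjusted p of at most 0.194, among them the removal of any of the PBS mice, of rIL-13 mouse 7 or of rIL-4 mouse 9 or 10. Macrophage sums over 5 eosinophil markers were 11.8 to 14.1 with PBS, 6.01 to 7.91 with rIL-13 and 4.69 to 5.87 CPM with rIL-4. Of the 2 tested, 1 fell with each cytokine, and the part of eosinophils was not tested. In microglia, Alox15 had 3.84, 2.33 and 3.13 CPM with PBS, 1.15, 0 and 1.55 with rIL-13 and 6.64, 2.22 and 0.924 CPM with rIL-4. The rIL-4 microglia overlapped with PBS, and 3 counts, the limit that a count of 0 allows, correspond to 0.0574 to 0.101 CPM per library. These limits cover counting error only.

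Among the cyclooxygenases, neither Ptgs1 nor Ptgs2 passed edgeR's threshold against PBS. In macrophages, the libraries of Ptgs2 separated from PBS with both cytokines and those of Ptgs1 with rIL-13. Ptgs2 had 102, 100 and 65.5 CPM in PBS macrophages, 5.32, 38.7 and 18.1 CPM after rIL-13 and 12.0, 45.6 and 23.0 CPM after rIL-4. All 6 cytokine-treated libraries lay below the 3 PBS libraries. The log2 fold change was -2.11 ± 0.63 with rIL-13 (adjusted p = 0.101) and -1.74 ± 0.62 with rIL-4 (adjusted p = 0.092). The call depended on the setting, since rIL-13 passed in 2 of 15 alternatives (smallest adjusted p = 0.00661) and rIL-4 in 5 of 15 (smallest adjusted p = 0.0131). The summed neutrophil markers of the macrophages were 1071 to 1826 CPM with PBS, 621 to 3435 CPM with rIL-13 and 298 to 1015 CPM with rIL-4. Of the 10, 2 fell with rIL-4 and 0 with rIL-13. Mouse 6 (rIL-13) and mouse 9 (rIL-4) had the highest sum and the highest Ptgs2 of their groups, whereas in the PBS group mouse 1 had the lowest sum (1071 CPM) and the highest Ptgs2. The part of neutrophils was not tested. In microglia, Ptgs2 had 27.7, 56.2 and 21.4 CPM with PBS, 8.33, 55.5 and 45.8 CPM with rIL-13 and 24.2, 43.0 and 18.1 CPM with rIL-4, with wide overlap.

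Ptgs1 had 121, 89.5 and 116 CPM in PBS macrophages, 180, 197 and 152 CPM after rIL-13 and 134, 82.9 and 111 CPM after rIL-4. The rIL-13 group lay above both other groups, and rIL-4 overlapped with PBS. With rIL-13 the log2 fold change was 0.70 ± 0.20 (adjusted p = 0.0823, edgeR), and it was called with DESeq2, without a filter on low counts and without rIL-4 mouse 9, with a smallest adjusted p of 0.0208. In microglia, Ptgs1 had 317, 200 and 337 CPM with PBS, 586, 285 and 527 CPM with rIL-13 and 358, 271 and 285 CPM with rIL-4. With rIL-13 the log2 fold change was 0.72 ± 0.29 and the groups overlapped (adjusted p = 0.596). Per length, the ratio of Ptgs2 to Ptgs1 in macrophages was 0.479 to 0.952 with PBS, 0.025 to 0.167 with rIL-13 and 0.0757 to 0.466 with rIL-4. Every cytokine-treated macrophage library thus had proportionally less Ptgs2 than every PBS library, whereas the ratio in PBS microglia was 0.0539 to 0.239 and overlapped with both cytokine groups of microglia.

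Ptges, the inducible prostaglandin E2 synthase, was not called against PBS. It had 16.9, 39.3 and 23.3 CPM in PBS microglia, 15.7, 54.2 and 30.7 CPM with rIL-13 and 11.8, 29.7 and 5.90 CPM with rIL-4. In macrophages its 9 libraries ranged from 1.64 to 3.97 CPM. Beside the lower Hpgds, the median ratio of Ptges to Hpgds per length in macrophages was 0.0423 with PBS, 0.201 with rIL-13 and 0.694 with rIL-4, and the 3 groups did not overlap.

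Between the cytokines, edgeR called 0 of the 10 genes in either cell type, where 0.0385% of all genes were called in microglia and 0.25% in macrophages. In microglia, 0 of the 10 had an unadjusted p under 0.05 (1773 of all 15566 genes had), DESeq2 called 0 (568 of all genes), and the groups overlapped for all 10, where 12.3% of all genes did not overlap. In macrophages, 6 of the 10 had an unadjusted p under 0.05 (Hpgd, Hpgds, Ptgs1, Ltc4s, Alox5 and Alox15), as had 1513 of all 13606 genes, and DESeq2 called 3 of them (Hpgd, Hpgds and Ptgs1) and 420 of all genes. All 6 had lower means with rIL-4, and 4 did not overlap, where 14.4% of all genes did not. Hpgd was lower with rIL-4 than with rIL-13 with a difference of -2.08 ± 0.37 on the log2 scale (adjusted p = 0.0528, and 1.15e-05 to 0.184 over the alternatives). For Hpgds it was -1.55 ± 0.31 (adjusted p = 0.0783, and 0.000148 to 0.244 over the alternatives). For Ptgs1 it was -0.69 ± 0.20 (adjusted p = 0.199) and for Ltc4s -1.05 ± 0.33 (adjusted p = 0.246). The microglial marker sum was also lower with rIL-4 (65.4 to 72.4 CPM) than with rIL-13 (242 to 359 CPM) in these macrophages.

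The same mouse gave both cell types, and their comparison asked in which cells each gene was more abundant. After PBS, 8 of the 10 genes were DE between microglia and macrophages by edgeR (40.9% of 14715 genes), 6 of them higher in microglia (24.5% of all genes) and 2 lower (16.3%). After rIL-13, 6 were DE (26.7% of all genes), 5 of them higher in microglia (17.2%) and 1 lower (9.46%), and without mouse 7 the count was 2, while the count over all genes went from 3710 to 1197. After rIL-4, 7 were DE (23.4%), 6 higher (13.4%) and 1 lower (9.97%). Ptges had the largest difference after PBS, with 26.5 ± 11.6 CPM in microglia and 2.57 ± 1.06 CPM in macrophages or 3.34 ± 0.40 on the log2 scale (adjusted p = 0.00027). It was 3.45 ± 0.47 after rIL-13 (adjusted p = 0.00208) and 2.28 ± 0.60 after rIL-4 (adjusted p = 0.0293), where the call was lost without mouse 8 or 9 and with the mouse as a replicate block (adjusted p = 0.0863). The fibroblast and pericyte markers were also far higher in microglia libraries, with all 8 called after each of the 3 treatments, as were all 5 endothelial markers, and their part in Ptges was not tested.

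Hpgd and Hpgds were higher in microglia after every treatment. After PBS the log2 fold change of Hpgd was 2.20 ± 0.32 (adjusted p = 0.000743, edgeR), after rIL-13 2.51 ± 0.42 (adjusted p = 0.00456, and 0.0697 without mouse 7) and after rIL-4 4.28 ± 0.42 (adjusted p = 0.000469). That of Hpgds was 1.19 ± 0.22 (adjusted p = 0.00237), 2.36 ± 0.32 (adjusted p = 0.00197) and 3.77 ± 0.28 (adjusted p = 0.000128) in the same order. Ptgs1 and Ltc4s were also higher in microglia after each treatment, Ptgs1 by 1.35 ± 0.22 on the log2 scale after PBS (adjusted p = 0.00129), 1.42 ± 0.28 after rIL-13 (adjusted p = 0.00827) and 1.5 ± 0.22 after rIL-4 (adjusted p = 0.00237). For Ltc4s the values were 1.57 ± 0.26 (adjusted p = 0.0014), 1.3 ± 0.40 (adjusted p = 0.0482) and 1.76 ± 0.32 (adjusted p = 0.00673) in the same order. After rIL-13, the call of Ptgs1 was lost without mouse 5 or 7 (adjusted p of at most 0.12) and that of Ltc4s without any one of mice 5, 6 and 7 (adjusted p of at most 0.16). Alox5 was higher in microglia after PBS by 1.25 ± 0.17 (adjusted p = 0.000484) and after rIL-4 by 1.36 ± 0.34 (adjusted p = 0.0241), and the second call was lost without any one of mice 8, 9 and 10 (adjusted p of 0.0673 to 0.106). After rIL-13 its value of 0.95 ± 0.37 did not pass (adjusted p = 0.102), but it did without mouse 6 (adjusted p = 0.0125) and in the model of all 18 libraries.

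Alox5ap showed the opposite order to its partner. It was lower in microglia than in macrophages with log2 differences of -1.31 ± 0.15 after PBS (adjusted p = 0.000197, edgeR), -1.72 ± 0.26 after rIL-13 (adjusted p = 0.00306, and 0.0502 without mouse 7) and -1.32 ± 0.18 after rIL-4 (adjusted p = 0.00195). Ptgs2 was lower in microglia after PBS, at 35.1 against 89.4 CPM (log2 fold change -1.38 ± 0.35, adjusted p = 0.0121), a call that was lost without mouse 1 and in a model of all 18 libraries (adjusted p of at most 0.172). After rIL-13 and rIL-4 the Ptgs2 levels of the cell types overlapped. With the mouse as a replicate block, Ptgs2 was called after rIL-13 (adjusted p = 0.049 against 0.51 without the block). Alox15 was not called after rIL-4 (adjusted p = 0.0643), but it was with the block (adjusted p = 0.0343), in the model of all 18 libraries (adjusted p = 0.0277) and by DESeq2 (adjusted p = 0.00328).

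**Figure D4:**
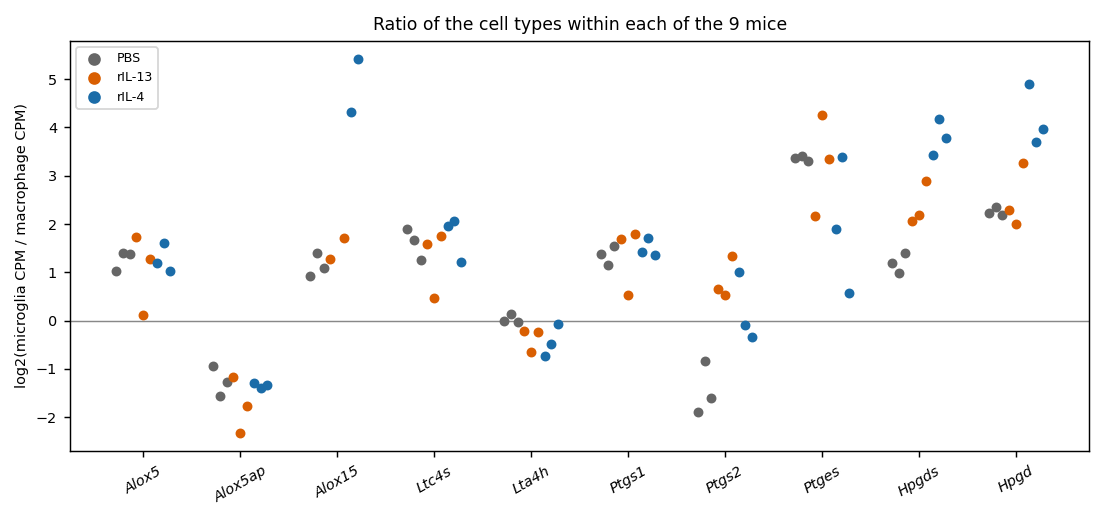
Log2 ratio of microglia to macrophage CPM within each of the 9 mice, coloured by treatment, with 1 point per mouse and the line at an equal level. Alox5, Ltc4s, Ptgs1, Ptges, Hpgds and Hpgd lie above the line in all 9 mice and Alox5ap below it in all 9, and Alox15 lacks mice 6 and 10, where 1 of the cell types had 0 counts.

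Within mice, Alox5, Ltc4s, Ptgs1, Ptges, Hpgds and Hpgd were higher in microglia in 9 of 9 mice. The median ratio of microglia to macrophages was 2.41 for Alox5, 3.16 for Ltc4s, 2.66 for Ptgs1 and 10.2 for Ptges. For Hpgds it was 4.55, with up to 18.2 in an rIL-4 mouse, and for Hpgd 5.10, with up to 29.8. Alox5ap was lower in microglia in 9 of 9 mice, with a median ratio of 0.399. Ptgs2 had no common direction and was higher in microglia in 4 of 9 mice, 0 of 3 with PBS, 3 of 3 with rIL-13 and 1 of 3 with rIL-4. The difference in its response to rIL-13 between the cell types was 2.17 ± 0.98 on the log2 scale and did not pass (adjusted p = 0.799, edgeR), where 0 of the 10 genes and 0.0242% of all genes were called. Of the 10 genes, 2 (Ptgs2 and Hpgds) had an unadjusted p under 0.05 for this interaction, as had 964 of all 16535 genes, and DESeq2 called 0 (154 of all genes).

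The wider eicosanoid pathway was described by a list of 64 other genes, from phospholipases to receptors. In rIL-4 macrophages, 15 of 43 tested genes were DE against PBS (34.9%, where 14% of all genes were), 8 higher and 7 lower, and in a model of all 18 libraries 4 were. In rIL-13 macrophages, 9 of 43 were DE (20.9%, where 4.19% of all genes were), 5 higher and 4 lower, and 1 in a model of all 18 libraries. Without rIL-4 mouse 9 the count with rIL-4 was 9, and without PBS mouse 2 or 3 the count with rIL-13 was 2. Over all genes, calls with rIL-4 went from 1900 to 1614 without mouse 9 and to 1053 in the model of all 18 libraries. Calls with rIL-13 went from 570 to 267 and 199 without PBS mouse 2 or 3, and to 257 in that model. Of 10 receptors tested, 3 rose and 2 fell with rIL-4, and 2 rose and 2 fell with rIL-13. Ptger4, a receptor of prostaglandin E2, had 18.6 to 31.5 CPM with PBS, 7.06 to 8.63 CPM with rIL-13 and 4.30 to 6.68 CPM with rIL-4. It fell by 2.06 ± 0.25 on the log2 scale with rIL-4 (adjusted p = 0.000603, edgeR) and by 1.60 ± 0.24 with rIL-13 (adjusted p = 0.00606), and both calls were lost only in the model of all 18 libraries. Ptgir, the prostacyclin receptor, had 6.98 to 9.16 CPM with PBS, 15.5 to 31.7 CPM with rIL-13 and 26.9 to 34.8 CPM with rIL-4. It rose by 1.97 ± 0.27 with rIL-4 (adjusted p = 0.00121), which held in all 15 alternatives, and by 1.43 ± 0.26 with rIL-13 (adjusted p = 0.0151), which was lost without PBS mouse 2 or 3 and in the model of all 18 libraries.

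Ptger2, another receptor of prostaglandin E2, and Tbxas1, the thromboxane synthase, were singled out after their values were seen. In macrophages, Ptger2 rose by 0.87 ± 0.12 on the log2 scale with rIL-4 (adjusted p = 0.00161, edgeR) and by 0.82 ± 0.12 with rIL-13 (adjusted p = 0.00601), calls that were lost in the model of all 18 libraries. Tbxas1 had 153 to 175 CPM with PBS, 247 to 328 CPM with rIL-13 and 332 to 364 CPM with rIL-4. It rose by 1.06 ± 0.14 with rIL-4 (adjusted p = 0.00098), which held in all 15 alternatives, and by 0.80 ± 0.14 with rIL-13 (adjusted p = 0.0107), which was lost without PBS mouse 2 or 3 or rIL-13 mouse 7. Of the phospholipases, rIL-4 gave 3 calls among 6 tested (14% of all genes were called), of which 2 rose and 1 fell. Pla2g7, which hydrolyses platelet-activating factor, had 601 to 923 CPM in PBS macrophages and 245 to 493 CPM in rIL-13 macrophages and fell by 1.14 ± 0.27 (adjusted p = 0.0468), a call lost in 10 of 15 alternatives. Pla2g12a rose by 1.06 ± 0.21 with rIL-13 (adjusted p = 0.0222), and Dpep2, which cleaves leukotriene D4, fell by 0.84 ± 0.17 (adjusted p = 0.0261). Without PBS mouse 2 or 3 or rIL-13 mouse 5 or 7, and in the model of all 18 libraries, these 2 calls were lost, and that of Pla2g12a also without PBS mouse 1.

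Other genes that the list named in macrophages had low levels, of at most 2.41 CPM in the PBS and rIL-4 libraries. Gpr31b, a receptor of 12-lipoxygenase products, had 0.509 to 0.793 CPM with PBS, 0 to 0.0834 CPM with rIL-13 and 0 to 0.0256 CPM with rIL-4. Alox12, the platelet-type lipoxygenase, had 0.339 to 0.89 CPM with PBS and 0 to 0.0714 CPM with rIL-4. Over 5 platelet markers, the macrophage libraries held 358 to 842 CPM with PBS and 125 to 352 CPM with rIL-4. Of the 2 tested, 0 were called with rIL-4, and the part of platelets was not tested. Cysltr2, a receptor of cysteinyl leukotrienes, had 0.0834 to 0.226 CPM with PBS and 0.285 to 1.51 CPM with rIL-4. Mgst2, which can make leukotriene C4, had 0.973 to 2.41 CPM with PBS and 0.261 to 0.64 CPM with rIL-4. Each of these 4 was called with rIL-4 by edgeR (adjusted p of 0.00598, 0.0379, 0.0414 and 0.026), and each call was lost in the model of all 18 libraries. With rIL-13, Gpr31b was called too (adjusted p = 0.0431), which was lost in 11 of 14 alternatives. The call of Alox12 was also lost without any one of the 6 PBS and rIL-4 mice, and that of Mgst2 without PBS mouse 1 or 2 or rIL-4 mouse 8 or 9. That of Cysltr2 was lost in 9 of 14 alternatives, among them the removal of any one of the PBS mice, of rIL-13 mouse 5 or 7 or of rIL-4 mouse 9 or 10, and the fit of only the 6 libraries compared.

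In microglia, the same list gave 1 call of 51 tested with rIL-4 (2.22% of all genes were called) and 0 with rIL-13 (0.366% of all genes). The call was Pla2g7, with 35.9 to 75.9 CPM with PBS and 15.5 to 24.1 CPM with rIL-4 (adjusted p = 0.0494, edgeR), and it was lost in 11 of 15 alternatives. After PBS, 33 of 48 tested genes of the list were DE between microglia and macrophages (68.8%, where 40.9% of all genes were), 20 higher and 13 lower in microglia. Ptgis, the prostacyclin synthase, had 26.9 to 45.1 CPM in PBS microglia and 0 to 0.0278 CPM in PBS macrophages. Slco2a1, a prostaglandin transporter, had 19.3 to 54.3 CPM and 0 to 1.07 CPM in the same order. Beside them, the fibroblast and pericyte markers summed to 2311 to 3188 CPM in PBS microglia and 4.70 to 8.23 CPM in PBS macrophages, and the 5 endothelial markers to 664 to 1493 CPM and 22.4 to 28.8 CPM. In rIL-13 microglia, Ptgis ranged from 36.3 to 144 CPM and the fibroblast sum from 1171 to 7279 CPM. The part of these cells was not tested. Cyp2j9, an arachidonic acid epoxygenase, had 5.18 to 7.34 CPM in PBS microglia and 0.0565 to 0.275 CPM in PBS macrophages. Ptgfr (0.929 to 4.74 CPM), Tbxa2r (1.56 to 5.97 CPM) and Dpep1 (0.758 to 5.14 CPM) were low in PBS microglia, and in PBS macrophages they were at 0, except for Tbxa2r with up to 0.17 CPM. After rIL-13, 23 of 46 tested genes of the list were DE between the cell types (26.7% of all genes were), and after rIL-4 17 of 44 (23.4% of all genes were). Without mouse 7 the count after rIL-13 was 9, and without mouse 10 that after rIL-4 was 10. Over all genes, the calls went from 3710 to 1197 and from 3174 to 1798 in the same order. Ggt1, which starts the breakdown of leukotriene C4, was at 0 in all rIL-4 microglia and at 0.357 to 0.887 CPM in rIL-4 macrophages. It was the only gene of the list called for a difference in the rIL-4 response between the cell types (adjusted p = 0.0374, edgeR), and this call was lost in 8 of 10 alternatives, among them no filter on low counts, the removal of any one of the PBS and rIL-4 mice, and the mouse as a replicate block (adjusted p = 0.182). With the block, Tbxas1 was called for this difference (log2 difference -0.95, adjusted p = 0.017 against 0.0589 without the block).

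The genes whose log2 levels over the 18 libraries were most like those of the DE enzymes were found by Pearson correlation over 16535 genes. For Hpgds they were Fcrls (0.986), Tln2 (0.978) and Pmp22 (0.977). For Hpgd they were Plxdc2 (0.981), Cx3cr1 (0.981) and Arsb (0.98), and Cx3cr1 is on the list of microglial markers. For Alox5 they were Smad3 (0.955), Dpysl2 (0.939) and P2ry13 (0.927), of which P2ry13 is on that list too. For Alox15, Gm26714 (0.909) and Pcdhga12 (0.865) came first. The points share mice and the split between the cell types, so that these values describe the 18 libraries.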

How the data were processed

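Microglia and macrophages of 9 mice gave 18 SMART-seq2 libraries, amplified from low and varying RNA input without molecular identifiers or strand. Reads were aligned by the authors with STAR 2.5.3a against GRCm38, and they deposited the expected counts of RSEM 1.3.0 per gene, as whole numbers without normalization. RSEM splits reads that match several genes. The annotation release is not given in the sources used here, and 50604 of 53465 gene identifiers matched GENCODE M21. Totals were 35961305 to 45849829 counts per library (median 39570356), and no pair of libraries was identical.

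Each cell type (9 libraries), each cell type comparison (6 libraries) and the interactions (18 libraries) were tested with edgeR 4.0.16 (quasi-likelihood, TMM, filterByExpr) in R 4.3.3 and adjusted over all genes by the Benjamini-Hochberg method, with a threshold of 0.05. The scripts were tested on simulated data. Standard errors came from the F statistic. Alternatives were DESeq2 1.42.0, other size factors and filters, fewer or more libraries, each mouse left out, and the mouse as a replicate block. Since the same animal gave both cell types, mouse numbers pair the samples. Deviations of the 2 cell types of a mouse correlated at 0.0436 to 0.167, and 5 of 9 exceeded 0.1. The members, lists and tests were chosen with earlier results of these data known. All members are named. Genes of the wider list were named from the up to 6 called with the largest change per comparison. The microglial markers, the cytokine response genes and the most similar genes each leave out 1 gene that is not reported here.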

Additional observations from a re-analysis of the deposited data

Results flagged for a closer look

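The response of Hpgds to rIL-4 differed between microglia and macrophages, with a difference of 2.52 ± 0.41 on the log2 scale (SE, adjusted p = 0.00883, edgeR interaction over 18 libraries). This call was lost without mouse 1, 3 or 10, with an adjusted p of at most 0.0802 in edgeR. In macrophages, the mean fell from 81.6 to 9.55 CPM, and in microglia it was 190 CPM with PBS and 128 CPM with rIL-4. All 3 rIL-4 macrophage libraries lay below all 3 PBS libraries, whereas the microglia groups overlapped. The microglial markers in the macrophage libraries moved with this result, with sums of 534 to 1013 CPM with PBS and 65.4 to 72.4 CPM with rIL-4. There, with rIL-4, 3 of 5 border macrophage markers rose, among them the cytokine response gene Mrc1, and 1 fell. Of 5 endothelial markers 2 rose and 1 fell, and 1 of 8 markers of monocyte-derived macrophages rose. The part of these cells was not tested.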

How the results depend on the processing

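For 54 results of the 10 genes, those with an unadjusted p under 0.05 or a call under any setting, the direction stayed in every alternative run, with 573 on the same side of the threshold, 44 that lost the call and 30 that gained it. The 54 were picked by p-values from these same data, which in itself favours a stable direction. For the 56 other results, of which only levels and adjusted p are given, 56 of 733 alternatives changed sign. With 3 mice per group, small differences were not detectable, and Alox15 rests on few counts. The p-values of the treatment comparisons within a cell type measure the spread between mice. Those between the cell types and of the interactions treat the 2 libraries of a mouse as independent, except where the mouse was a block.

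Counts of the 10 genes called changed as follows. With DESeq2, rIL-13 microglia had 2, rIL-4 against rIL-13 macrophages 3 and the rIL-4 interaction 2. Over all genes, DESeq2 called 322, 420 and 685 in these comparisons, where edgeR called 57, 34 and 164. Without a filter on low counts, rIL-13 macrophages had 4 and rIL-4 against rIL-13 macrophages 2, the latter also 2 in a model of all 18 libraries. Over all genes, 760 and 209 were called without the filter (570 and 34 with it), and 70 for the latter in that model. With only the 6 libraries compared, rIL-13 microglia had 0, where 37 of all genes were called. With the mouse as a replicate block, the rIL-4 interaction had 2, microglia against macrophages 8 after PBS, 7 after rIL-13 and 7 after rIL-4, and beside the calls named in the report it changed none of the 10 genes. Over all genes, the block gave 188, 5912, 3538 and 2790 calls in the same order. No block can be fitted between treatments, which were given to different mice. With each mouse left out in turn, the counts for rIL-4 microglia were 0 to 2 (0 without PBS mouse 1 or 3). They were 0 to 2 for rIL-13 microglia, 3 to 5 for rIL-4 macrophages and 0 to 1 for rIL-4 against rIL-13 macrophages. For rIL-13 macrophages they were 1 to 3 (1 without PBS mouse 1 or 3 or rIL-13 mouse 7). For the rIL-4 interaction they were 0 to 1 (0 without mouse 1, 3 or 10). Between cell types they were 7 to 8 after PBS, 2 to 6 after rIL-13 (2 without mouse 7) and 5 to 6 after rIL-4. Over all genes, the counts were 75 to 409 for rIL-4 microglia (345 with all mice) and 22 to 56 for rIL-13 microglia (57). For macrophages they were 1041 to 2261 with rIL-4 (1900), 199 to 677 with rIL-13 (570) and 1 to 60 between the cytokines (34). The rIL-4 interaction had 18 to 109 (164). Between cell types they were 4354 to 5213 after PBS (6014), 1197 to 3606 after rIL-13 (3710) and 1798 to 2548 after rIL-4 (3174).

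For the wider list, DESeq2 gave 4 calls for rIL-4 microglia, 6 for rIL-4 against rIL-13 microglia and 2 for each interaction. Over all genes, DESeq2 called 1212, 568, 685 (rIL-4 interaction) and 154 (rIL-13 interaction), where edgeR called 345, 6, 164 and 4. With DESeq2 size factors or only 6 libraries, rIL-4 microglia had 0, where 341 and 418 of all genes were called. The model of all 18 libraries gave 3 for rIL-4 microglia, 1 for rIL-13 microglia, 4 for rIL-4 macrophages and 1 for rIL-13 macrophages. Over all genes it gave 949, 172, 1053 and 257 in the same order. The rIL-4 interaction had 1 call and 0 without a filter, where 164 and 170 of all genes were called. With at least 10 counts in every library, microglia against macrophages had 15 after rIL-13 and 11 after rIL-4. Over all genes, 2599 and 2397 were called there. With each mouse left out, the counts were 0 to 1 for rIL-4 microglia, 9 to 16 for rIL-4 macrophages, 2 to 8 for rIL-13 macrophages, 0 to 1 for the rIL-4 interaction, 25 to 31 after PBS, 9 to 20 after rIL-13 (9 without mouse 7) and 10 to 16 after rIL-4 (10 without mouse 10) between the cell types. The counts over all genes with each mouse left out are given above. The cause of these changes was not tested.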
